A study of Mus musculus with 8 samples.

Results

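The transcripts described here are 8 genes of macrophages and other leukocytes, measured in RNA precipitates of mouse testis: C1qa, C1qb, Csf1r, Cd68, Cd14, Ptprc, Tyrobp and Emr1. They were taken by gene name from the arrays' own annotation, which gave 14 of 41174 probes and 8 of 27962 gene names. All 8 passed the filter on dim probes and are among the 17580 genes tested. Testes of male C57BL/6 129SV mixed mice at postnatal day 14 held germ cells in which Dazl, a germ cell protein that binds RNA, was expressed as Dazl-GFP-V5, fused to both tags. Lysates were used for native RNA immunoprecipitation, without crosslinking, and the RNA was hybridised to one-colour Agilent arrays. The 8 arrays form 4 groups of 2: a precipitate with an antibody against V5, a precipitate with an antibody against GFP, a mock precipitate with normal mouse IgG, and the input total RNA, which saw no antibody. The fusion was expressed in the cells of all 4 groups, so no group lacked it. The labels do not say whether the replicates came from separate animals, so the p-values cover only the spread between the arrays of a group, and that spread may be technical.

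Macrophages are the main leukocytes of the testis, where they lie in the interstitium beside Leydig cells and on the outside of the tubules. Their survival depends on Csf1r, the receptor for colony-stimulating factor 1, and they are a source of the complement protein C1q in most tissues. Ptprc (CD45) is a phosphatase carried by nearly all nucleated blood cells, whereas Emr1 (F4/80, now Adgre1) marks mature mouse macrophages. These genes serve as markers of leukocytes, not of germ cells. The comparisons ask how such transcripts were distributed between the precipitates of a germ cell protein, the mock and the input.

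The labels name the cells as germ cells, but markers of other testis cells were present. Marker genes with a probe well above background were counted on each input array before the filter on dim probes. They were 20 of 20 Sertoli, 9 of 10 Leydig, 10 of 10 myoid, 12 of 12 endothelial and 6 of 9 erythroid markers. All 14 germ cell markers found on the array were among them too. The 8 leukocyte genes were above background on both input arrays too. Of the 43379 spots on an array, 57.2% to 62.2% were well above background, and 0 were saturated on any of the 8 arrays. Arrays of a group correlated at r = 0.9945 to 0.9973 across genes, which are not independent replicates. The labels hold some conflicts: the series text gives a PABP1 antibody where the samples give GFP, and 2 arrays, input replicate 2 and V5 replicate 1, carry descriptions that contradict their titles. Titles were followed here, and the calls lost without these 2 arrays are given below. The V5 and GFP arrays were on 1 slide and the IgG and input arrays on the other, so in V5 or GFP against IgG or input the slide and the antibody cannot be told apart. The comparisons of IgG with input and of V5 with GFP lie within a slide.

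Values below are scaled signals, the array signal divided by that array's 75th percentile and multiplied by 100. Because a probe's brightness depends on its sequence, signals are compared between groups for 1 probe and never between genes. Differences are log2 fold changes with their standard error (SE), and adjusted p-values come from limma's moderated test over all 17580 genes, with a threshold of 0.05. A difference between groups compares RNA recovered with an antibody with other recovered RNA or with input, and does not measure cell number. For the level of a transcript in these bulk samples, fewer cells of a type and less RNA per cell cannot be told apart.

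C1qa and C1qb encode chains of C1q, the protein that starts the classical complement pathway. C1qa had scaled signals of 187 and 201 on the V5 arrays and 142 and 166 on the GFP arrays, against 264 and 329 on the IgG arrays and 234 and 211 on the input arrays. Both V5 and both GFP arrays lay below every IgG and input array, and the IgG arrays were the brightest. C1qb had 80.5 and 84.7 on the V5 arrays and 63.6 and 63.0 on the GFP arrays, against 118 and 142 on the IgG arrays and 155 and 159 on the input arrays. Here the groups did not overlap at all, and input was the highest. C1qa fell by 0.60 ± 0.13 on the log2 scale in V5 against IgG (adjusted p = 0.0107) and C1qb fell by 0.65 ± 0.097 (adjusted p = 0.00384). In GFP against IgG, C1qa fell by 0.94 ± 0.13 (adjusted p = 0.00103) and C1qb by 1.03 ± 0.097 (log2 fold change -1.03, adjusted p = 0.000311), to 0.489 of its IgG level. These are the members that were lowest relative to IgG.

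The receptors are Csf1r, Cd14 and Emr1. Csf1r drives macrophage growth and survival, Cd14 hands bacterial lipopolysaccharide to Toll-like receptor 4, and Emr1 is an adhesion G protein-coupled receptor. Csf1r had scaled signals of 64.2 and 74.0 on the V5 arrays and 54.1 and 63.7 on the GFP arrays, against 88.2 and 109 on the IgG arrays and 90.6 and 96.7 on the input arrays. The GFP arrays were the lowest and the V5 arrays next, all 4 below the IgG and input arrays, which overlapped each other. Cd14 had 24.6 and 22.7 on the V5 arrays and 19.9 on each GFP array, against 30.4 and 34.7 on the IgG arrays and 26.9 on each input array. Its highest group was IgG. Emr1 had 60.8 and 63.6 on the V5 arrays and 45.8 and 51.3 on the GFP arrays, against 68.5 and 71.8 on the IgG arrays and 110 and 104 on the input arrays. The Emr1 groups did not overlap, and input stood well above all precipitates, the IgG one included. In V5 against IgG, Csf1r fell by 0.51 ± 0.14 (adjusted p = 0.0208) and Cd14 by 0.46 ± 0.086 (log2 fold change -0.46, adjusted p = 0.00672). Emr1 had a log2 fold change of -0.17 ± 0.082 there and missed the threshold (adjusted p = 0.113, 95% interval -0.37 to 0.03). All 3 receptors passed in GFP against IgG, with log2 fold changes of -0.74 for Csf1r, -0.70 for Cd14 and -0.53 for Emr1 (adjusted p = 0.00304, 0.000617 and 0.00143).

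Csf1r was also measured by a second probe that passed the filter, A_52_P602091. Its scaled signals were 18.3 and 22.2 on the V5 arrays and 13.0 and 15.2 on the GFP arrays, against 27.9 and 31.5 on the IgG arrays and 31.9 and 30.6 on the input arrays. The log2 fold changes of this probe were -0.56 ± 0.13 in V5 against IgG and -1.08 ± 0.13 in GFP against IgG (adjusted p = 0.0134 and 0.000669). The direction was that of the brighter Csf1r probe, and the fitted difference between GFP and IgG was larger, a contrast between probes that was not tested. The other 5 member probes, 1 for Csf1r, 3 for Ptprc and 1 for Emr1, were not well above background on both arrays of any group. A dim Ptprc probe reached a scaled signal of 5.39 on V5 replicate 1, while V5 replicate 2 gave 0.596.

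Tyrobp (DAP12) is the signalling adaptor of Trem2 and other activating receptors, and Cd68 is a glycoprotein of macrophage lysosomes. Tyrobp had scaled signals of 153 and 139 on the V5 arrays and 131 and 128 on the GFP arrays, against 176 and 172 on the IgG arrays and 173 and 189 on the input arrays. Cd68 had 30.4 and 29.8 on the V5 arrays and 24.3 and 27.3 on the GFP arrays, against 38.2 and 36.0 on the IgG arrays and 49.0 and 52.4 on the input arrays. Neither gene's V5 or GFP arrays overlapped its IgG or input arrays, while for Tyrobp the IgG and input arrays overlapped. In V5 against IgG, Tyrobp fell by 0.26 ± 0.079 (adjusted p = 0.0313) and Cd68 fell by 0.30 ± 0.083 (adjusted p = 0.0214). Tyrobp fell by 0.43 ± 0.079 (adjusted p = 0.00299) and Cd68 fell by 0.53 ± 0.083 (adjusted p = 0.00152) in GFP against IgG.

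Ptprc was the member nearest to background. Its probe was printed in 10 spots, of which 6 and 6 were well above background on the V5 arrays, 1 and 1 on the GFP arrays, 7 and 0 on the IgG arrays, and 10 and 10 on the input arrays. Scaled signals were 3.23 and 3.86 on the V5 arrays and 2.47 and 2.56 on the GFP arrays, against 4.34 and 2.84 on the IgG arrays and 10.2 and 9.45 on the input arrays. The V5 and IgG arrays overlapped, and the input arrays stood clear of all 6 precipitates. Since Ptprc was not well above background on either GFP array, its GFP level is only an upper limit. With the background treatment of the main fit it was at least 3.79-fold lower in GFP than in input (adjusted p = 0.000148). Such a bound sets the mean of the brighter group against, per array, the higher of the probe's own signal and the lowest signal well above background. It does not hold under normexp background correction, where the log2 fold change of Ptprc in GFP against input was -0.01 (limma, adjusted p = 0.993). Against IgG no such limit can be given, as only 1 of 2 IgG arrays was above background. The fitted log2 fold change in GFP against IgG was -0.48 ± 0.20 (limma, adjusted p = 0.0636). It ranged from -0.79 to -0.17 when 1 array was left out. V5 against IgG gave 0.01 ± 0.20 on the log2 scale (adjusted p = 0.97, 95% interval -0.47 to 0.48). Without IgG replicate 2, the array with 0 spots above background, Ptprc passed in GFP against IgG.

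**Figure D1:**
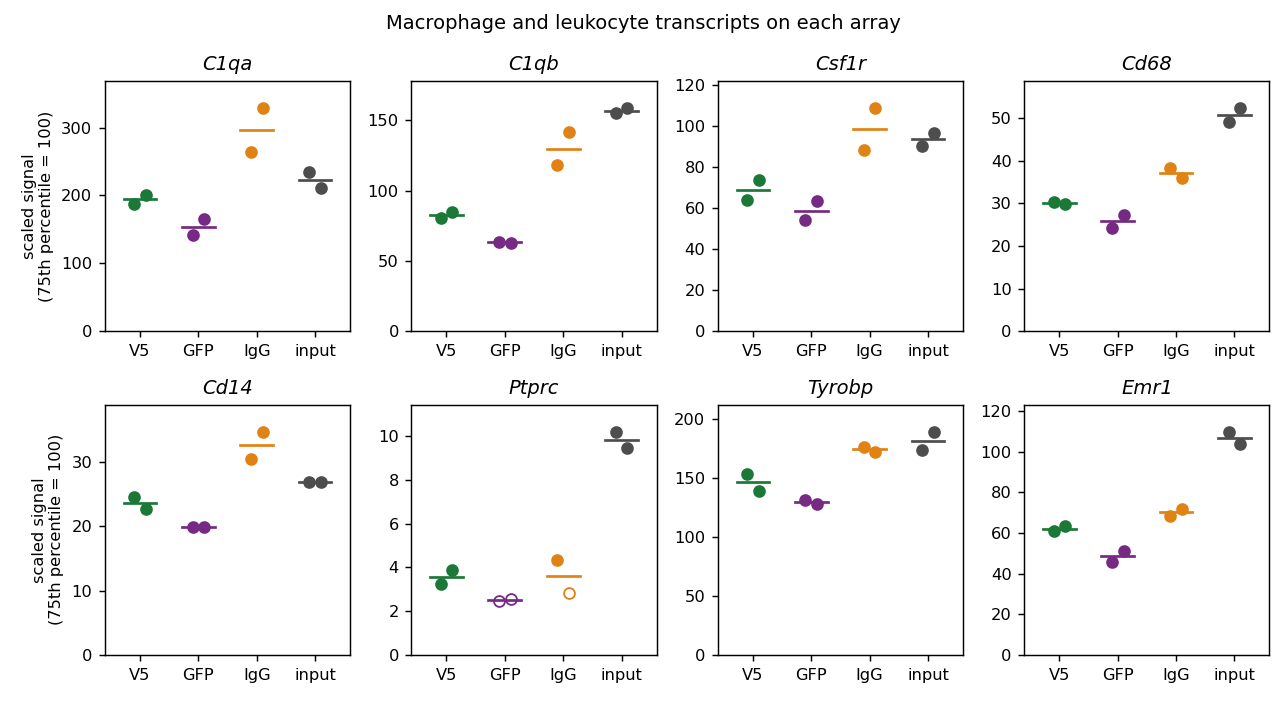
Scaled signal of each of the 8 genes on each array (y axis, 75th percentile of the array = 100, each panel from 0) in the V5, GFP, IgG and input groups (x axis); points are arrays, bars the mean of 2 arrays, and open points are not well above background. The 2 GFP arrays are the lowest of the 8 in every panel, while the brightest group is IgG for C1qa, Csf1r and Cd14 and input for the other 5 genes.

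The promoters of the members that RefSeq's table holds are shown because the 8 genes are used as markers of a lineage that needs the transcription factor PU.1 (Spi1), whose core site can be looked for in them. The arrays measured RNA, not promoters. The table (GRCm38.p6) matched 3 of the 8 members, each given from 250 bases before to 50 after its start, on the minus strand and read 5′ to 3′. Capitals mark the PU box GAGGAA on either strand, the only motif searched. The windows are C1qb at chr4:136886151-136886450, Cd68 at chr11:69666121-69666420 and Ptprc at chr1:138175256-138175555.
C1qb: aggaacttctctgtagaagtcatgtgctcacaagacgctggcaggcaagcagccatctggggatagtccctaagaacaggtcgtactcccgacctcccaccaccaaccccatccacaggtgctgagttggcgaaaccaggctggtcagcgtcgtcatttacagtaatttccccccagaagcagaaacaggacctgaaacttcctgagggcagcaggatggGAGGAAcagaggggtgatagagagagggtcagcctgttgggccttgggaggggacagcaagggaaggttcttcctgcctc
Cd68: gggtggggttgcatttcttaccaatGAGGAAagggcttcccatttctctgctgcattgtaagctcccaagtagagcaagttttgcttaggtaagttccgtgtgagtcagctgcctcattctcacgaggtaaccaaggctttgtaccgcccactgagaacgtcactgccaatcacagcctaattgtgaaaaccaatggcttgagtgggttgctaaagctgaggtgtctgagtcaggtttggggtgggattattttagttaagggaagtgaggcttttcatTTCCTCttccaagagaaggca
Ptprc: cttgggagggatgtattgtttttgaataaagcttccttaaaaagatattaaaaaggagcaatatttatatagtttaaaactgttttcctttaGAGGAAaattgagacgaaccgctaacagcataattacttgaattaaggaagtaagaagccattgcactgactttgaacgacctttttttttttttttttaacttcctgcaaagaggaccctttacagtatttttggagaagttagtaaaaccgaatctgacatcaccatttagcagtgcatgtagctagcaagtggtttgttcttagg
The C1qb window holds 1 match, at base 221 of 300. That of Cd68 holds 2, at base 26 and, on the other strand, at base 280, and that of Ptprc holds 1, at base 93. A further Ptprc start in the table had 0 matches and is not printed. The same letters are in 9289 of 32851 promoters of this length, or 28.3%, so a match is a description and not a binding site.

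Set against IgG, the mock that gives the background of the precipitation, the leukocyte genes were lower in both Dazl precipitates. In V5 against IgG, 6 of the 8 fell and 0 rose, and Ptprc and Emr1 did not pass. Of all 17580 genes 57.1% passed in either direction, 16.7% as higher and 40.4% as lower. The median log2 fold change was -0.38 over the 8 genes and -0.21 over all genes. In GFP against IgG, 7 of the 8 fell and 0 rose, against a background of 73.7% of all genes in either direction, 21.6% higher and 52.1% lower, and the medians were -0.62 and -0.33. The arrays of the groups compared did not overlap for 7 of the 8 genes in V5 against IgG and for 8 in GFP against IgG, with all-gene shares of 80.1% and 86.5%. Both comparisons use the same IgG arrays.

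The size of these differences depends on how the arrays are scaled, as the plot of 3 scalings shows. With the spike-in spots as the common scale, the all-gene median moved to 0.16 in V5 against IgG and to 0.15 in GFP against IgG, and the share of calls that were higher was 87.1% and 76.2%, where it was 29.3% in both on the 75th percentile scale. Of the 8 genes 0 then passed in V5 against IgG (limma, 2 at an unadjusted p under 0.05) and 2, C1qa and C1qb, in GFP against IgG, where their log2 fold changes were -0.46 and -0.56. The sign of Cd68, Tyrobp and Emr1 in V5 against IgG (0.06, 0.11 and 0.19) and of Tyrobp in GFP against IgG (0.05) turned. The difference from the all-gene median does not depend on a scaling that shifts whole arrays: it was -0.40 for C1qa, -0.44 for C1qb, -0.30 for Csf1r and -0.25 for Cd14 in V5 against IgG. Cd68 and Tyrobp were close to that median (-0.10 and -0.05), and Emr1 and Ptprc were above it (0.03 and 0.22). All 8 were below it in GFP against IgG, between -0.10 for Tyrobp and -0.71 for C1qb. With normexp background correction 0 of the 8 passed in V5 against IgG (2 at an unadjusted p under 0.05) and 2 in GFP against IgG.

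**Figure D2:**
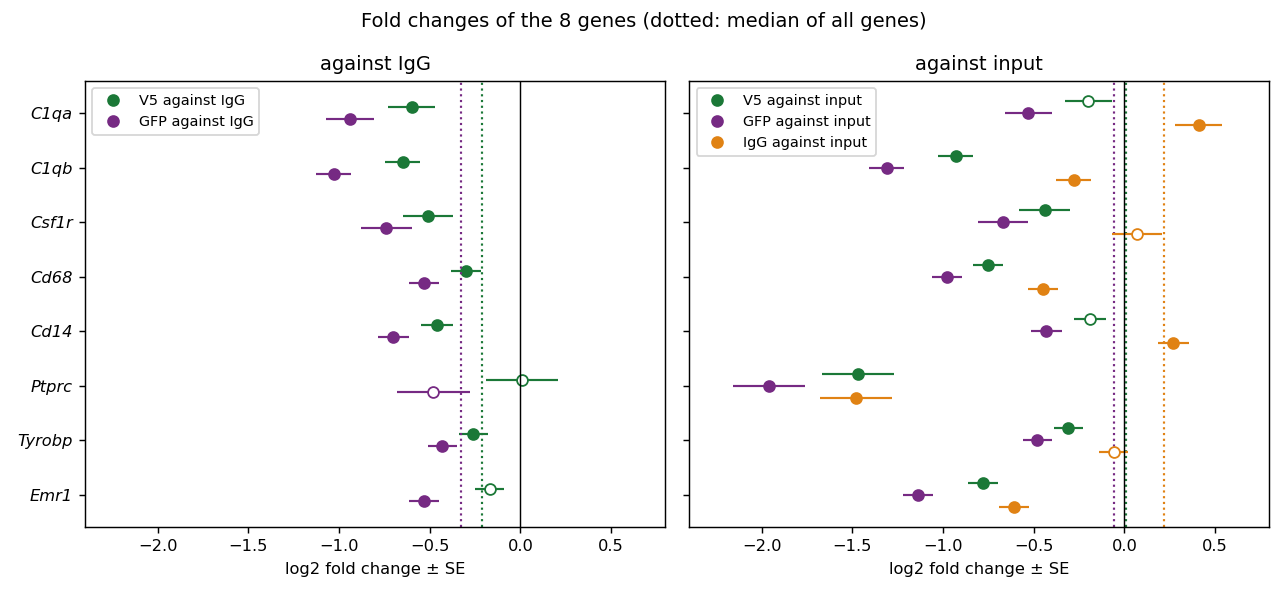
Log2 fold changes with SE (x axis) of the 8 genes (rows) against IgG, left, and against input, right; filled points passed the threshold of 0.05, open points did not, and dotted lines are the medians of all 17580 genes. Against IgG, C1qa and C1qb are the lowest, and against input Ptprc has the lowest fitted value in all 3 precipitates, with its GFP level not above background.

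Several of the V5 calls against IgG were lost when 1 array was left out, while the fold changes kept their sign. Without V5 replicate 1 the log2 fold changes were -0.55 for C1qa, -0.41 for Csf1r and -0.32 for Cd68. In the full fit they were -0.60, -0.51 and -0.30. Tyrobp stayed at -0.26 without either GFP array, neither of which is in that comparison. Without V5 replicate 1, C1qa, Csf1r and Cd68 no longer passed against IgG (adjusted p = 0.0583, 0.107 and 0.0747). Csf1r was also lost without IgG replicate 2 (0.0898), and Cd68 without IgG replicate 1 (0.0629) or V5 replicate 2 (0.0868). Tyrobp was lost without V5 replicate 2, IgG replicate 1 or 2, or GFP replicate 1 or 2, with adjusted p between 0.0537 and 0.153. Without the 2 arrays of conflicting descriptions 0 of the 8 passed in V5 against IgG (limma, 4 at an unadjusted p under 0.05). Whichever array was left out, 7 or 8 of the 8 passed in GFP against IgG.

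Relative to input RNA the leukocyte genes were also low in the precipitates. In GFP against input all 8 fell, against a background of 75.3% of all genes in either direction, 36.2% higher and 39.1% lower, with a median of -0.82 over the 8 and -0.06 over all genes. In V5 against input 6 fell and 0 rose, with a background of 73.2% in either direction, 37.7% higher and 35.6% lower, and medians of -0.60 and 0.01. Ptprc fell most, by 1.47 ± 0.20 in V5 against input (adjusted p = 0.000609). C1qb fell by 0.93 ± 0.097, Emr1 by 0.78 ± 0.082 (log2 fold change -0.78) and Cd68 by 0.75 ± 0.083 (log2 fold change -0.75) in V5 against input, with adjusted p between 0.000202 and 0.000253. The smaller differences in V5 against input were -0.44 for Csf1r (adjusted p = 0.0251) and -0.31 for Tyrobp (adjusted p = 0.0106). C1qa (-0.20, adjusted p = 0.218) and Cd14 (-0.19, adjusted p = 0.0888) did not pass. For Ptprc in GFP against input the main fit gives only the bound of at least 3.79-fold lower. With normexp background correction its log2 fold change there was -0.01. The other differences in GFP against input were -1.31 for C1qb, -1.14 for Emr1, -0.98 for Cd68, -0.67 for Csf1r, -0.53 for C1qa, -0.48 for Tyrobp and -0.43 for Cd14. The arrays of the groups did not overlap for any of the 8 in either comparison, with all-gene shares of 89.7% for V5 and 90.2% for GFP. The precipitates' differences from input keep their sign on the spike-in scale, where the medians over the 8 were -1.03 in V5 and -1.14 in GFP and those over all genes -0.42 and -0.38.

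Without V5 replicate 1 or either input array Csf1r no longer passed in V5 against input (adjusted p = 0.0612 to 0.128), and without both arrays of conflicting descriptions Csf1r and Tyrobp were lost (0.305 and 0.0815). Tyrobp was lost there too without V5 replicate 2 (0.0654) or input replicate 2 (0.0739), and C1qa was lost in GFP against input without GFP replicate 1 (0.0536) or input replicate 1 (0.0583). Normexp background correction left 2 of the 8 in V5 against input and 3 in GFP against input, and gave the opposite sign to Cd14 in V5 and GFP against input (0.22 and 0.04) and to Ptprc in V5 against input (0.18).

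The mock precipitate itself differed from input, and here the 8 genes did not move together. On the 75th percentile scale C1qa was higher in IgG than in input by 0.41 ± 0.13 (adjusted p = 0.0294) and Cd14 by 0.27 ± 0.086 (adjusted p = 0.0251), whereas on the spike-in scale both were lower, by log2 fold changes of -0.39 and -0.52. C1qb fell by 0.28 ± 0.097 in IgG against input (adjusted p = 0.0365), Cd68 fell by 0.45 ± 0.083 (adjusted p = 0.00251) and Emr1 fell by 0.61 ± 0.082 (adjusted p = 0.000565). Ptprc, not well above background on IgG replicate 2, was lower in IgG than in input with a fitted log2 fold change of -1.48 (adjusted p = 0.000518), or -1.18 without IgG replicate 2 and -1.79 without IgG replicate 1. Csf1r (0.07 ± 0.14, adjusted p = 0.674; 95% interval -0.26 to 0.40) and Tyrobp (-0.06 ± 0.079, adjusted p = 0.546; interval -0.25 to 0.13) did not pass. Of the 8 genes 2 rose and 4 fell, where 43.9% of all genes were called higher and 29.3% lower, 73.3% in all. The arrays did not overlap for 6 of the 8, and for 87.2% of all genes. The chains C1qa and C1qb, which share a protein complex, moved in opposite directions between IgG and input on this scale: relative to the all-gene median C1qa lay 0.19 above and C1qb 0.50 below (log2 difference -0.50).

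These calls between IgG and input are fragile for the small differences. C1qa was lost without IgG replicate 2, input replicate 1 or input replicate 2 (adjusted p = 0.0519 to 0.138), and Cd14 was lost without the same arrays (0.0846 to 0.0918). C1qb was lost without IgG replicate 1, or any V5, GFP or input array (0.0557 to 0.131). The same 3 genes were lost without both arrays of conflicting descriptions (0.129 to 0.186). Cd68, Ptprc and Emr1 passed whichever single array was left out. With normexp correction 0 of the 8 passed (limma, 1 at an unadjusted p under 0.05), and Ptprc turned to 0.12.

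**Figure D3:**
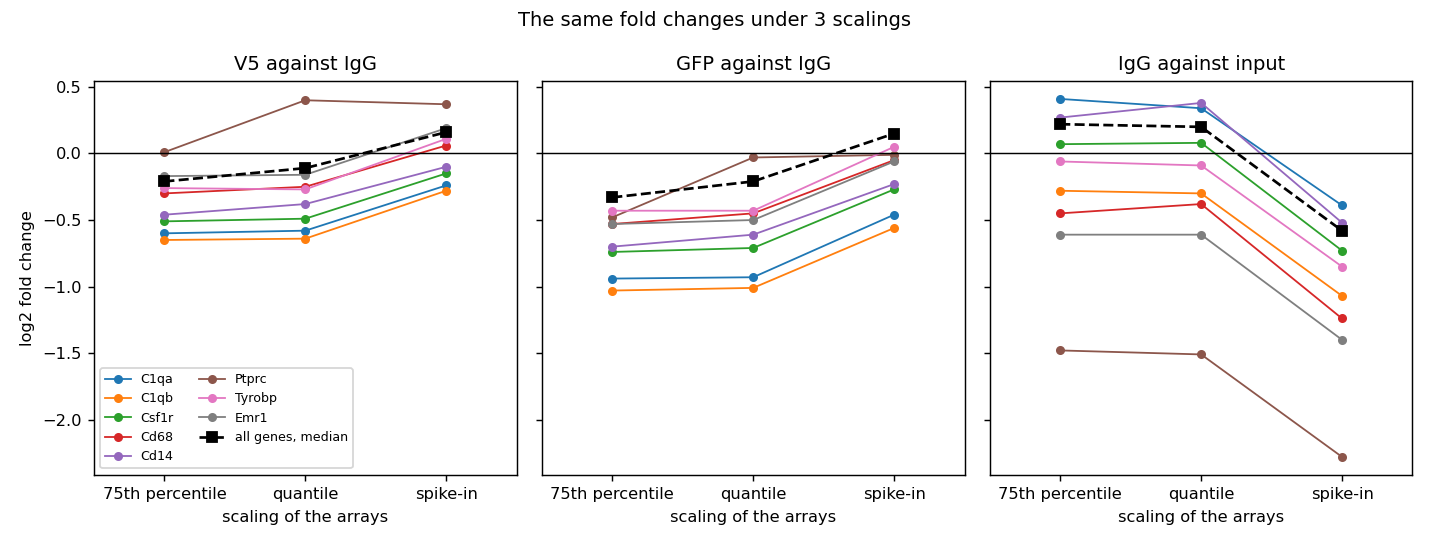
Log2 fold changes (y axis) of the 8 genes, coloured, and the median of all genes, black dashed, under 3 scalings of the arrays (x axis) in V5 against IgG, GFP against IgG and IgG against input. Scaling to spike-in spots moves every gene by the same amount as the all-gene median, from -0.21 to 0.16 in V5 against IgG and from 0.22 to -0.58 in IgG against input, so the order of the genes stays.

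Between the antibodies, all 8 genes were higher with V5 than with GFP on these arrays, and few of the differences passed. C1qb (0.38 ± 0.097, adjusted p = 0.0489) and Emr1 (0.36 ± 0.082, adjusted p = 0.0415) rose in V5 against GFP, 2 of 8, against a background of 14% of all genes in either direction, 6.8% higher and 7.19% lower. The other 6 ranged from 0.17 for Tyrobp (adjusted p = 0.165, 95% interval -0.02 to 0.36) to 0.49 for Ptprc (adjusted p = 0.122, interval 0.01 to 0.96), whose GFP level was not above background. The medians were 0.29 over the 8 and 0.09 over all genes. The V5 and GFP arrays did not overlap for any of the 8, and neither did those of 71.3% of all genes. No call survived the loss of a V5, GFP or input array (C1qb adjusted p = 0.0938 to 0.185, Emr1 0.0843 to 0.167), a replicate block (0.0584 and 0.0575) or the spike-in scale (0.127 and 0.0834), on which 9.65% of all calls were higher against 48.6% on the main one.

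Both GFP arrays were the lowest of all 8 arrays for each of the 8 genes, which held for 23.4% of all genes. The order of the groups was input, IgG, V5 and GFP for C1qb, Cd68, Tyrobp and Emr1, and IgG, input, V5 and GFP for C1qa, Csf1r and Cd14. For Ptprc it was input, V5, IgG and GFP. Neighbouring groups in these orders all differed beyond the threshold only for C1qb. V5 and GFP, the last pair, did not for C1qa, Csf1r, Cd68, Cd14 and Tyrobp, and neither did IgG and GFP for Ptprc. Input and IgG did not for Csf1r and Tyrobp, input and V5 did not for C1qa and Cd14, IgG and V5 did not for Emr1, and V5 and IgG did not for Ptprc.

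The summed scaled signal of the 8 genes was 603 and 618 on the V5 arrays and 483 and 522 on the GFP arrays, against 787 and 897 on the IgG arrays and 849 and 848 on the input arrays. Over the 8 arrays the genes correlated with each other at Pearson r between 0.28, for C1qa with Ptprc, and 0.98, for Cd68 with Emr1. C1qa went closest with Cd14 (0.96) and Csf1r (0.92), and Ptprc with Emr1 (0.94) and Cd68 (0.92). Points share their arrays and scaling, so these values describe 8 arrays in 4 groups and were not tested.

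Profiles were compared for 11100 genes above background on all 8 arrays that have a symbol in RefSeq's table, the 8 genes themselves left out. The 6 whose profile was most like the mean profile of the 8 were Gstm2 (r = 0.999), Nt5c (0.998), Ube1x, now Uba1 (0.998), Creb3 (0.998), 2810405K02Rik, now Prxl2b (0.996), and C1qc (0.996). C1qc, the remaining C1q chain, had scaled signals of 199 and 215 on the V5 arrays and 155 and 172 on the GFP arrays, against 273 and 299 on the IgG arrays and 354 and 331 on the input arrays. Gstm2, a glutathione transferase, had 4250 and 4500 on the V5 arrays and 3400 and 3570 on the GFP arrays, against 5610 and 5880 on the IgG arrays and 6960 and 7180 on the input arrays. For C1qc and Gstm2 the groups fell in the order input, IgG, V5 and GFP without overlap. That is the order of the mean profile by which they were chosen, so it is no separate result. In RefSeq's table C1qb, C1qc and C1qa are consecutive protein-coding genes.

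Other macrophage genes that passed against IgG on the 75th percentile scale were lower in the precipitates. Of 30 listed, 27 were measured. In V5 against IgG 0 rose and 12 fell (median -0.25, against -0.21 over all genes), a share near the 40.4% of all genes called lower. In GFP against IgG 0 rose and 20 fell (median -0.54), where 52.1% of all genes were lower. These all-gene shares apply to the lists below too, with 16.7% and 21.6% higher in V5 and GFP against IgG. On the spike-in scale 1 rose and 0 fell in V5 against IgG, with a median of 0.11, and 2 rose and 4 fell in GFP against IgG, with a median of -0.06. Of all 17580 genes 6193 rose and 915 fell on that scale in V5 against IgG, and 6845 rose and 2141 fell in GFP against IgG. In GFP against input 23 fell and 1 rose (median -1.02), and in IgG against input 15 fell and 2 rose (median -0.63), where 39.1% and 29.3% of all genes were lower. C1qc fell by 0.80 ± 0.09 in GFP against IgG (adjusted p = 0.000492), the folate receptor Folr2 by 0.58 ± 0.068 (log2 fold change -0.58, adjusted p = 0.000545), and the pore protein Mpeg1 by 0.63 ± 0.062 (log2 fold change -0.63, adjusted p = 0.000361). Mpeg1 had 705 and 671 on the V5 arrays and 545 and 543 on the GFP arrays, against 831 and 847 on the IgG arrays and 797 and 817 on the input arrays. Itgam, Clec7a and Ccr2 did not pass the filter on dim probes.

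Complement, growth factor receptor and Toll-like receptor genes are the pathways around the 8 genes. Of 14 complement genes measured of 16 listed, 7 fell and 1 rose in V5 against IgG (median -0.30), and 9 fell and 1 rose in GFP against IgG (median -0.51). The complement components C3 and Cfb fell in GFP against IgG by log2 fold changes of -0.81 and -0.74 (adjusted p = 0.000257 and 0.000341). The exception was Cd55, which protects cells from complement: it had 19.0 and 18.7 on the V5 arrays and 22.9 and 23.5 on the GFP arrays, against 14.1 and 12.8 on the IgG arrays and 28.3 and 29.2 on the input arrays. Cd55 rose by 0.49 ± 0.071 in V5 against IgG and by 0.79 ± 0.071 in GFP against IgG (adjusted p = 0.00351 and 0.000282), and was lower in IgG than in input (-1.10 ± 0.071, adjusted p = 2.51e-05). On the spike-in scale 2 complement genes rose and 0 fell in V5 against IgG, and 2 rose and 4 fell in GFP against IgG.

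Among genes of Csf1r and Tyrobp signalling, 15 of 18 were measured. In V5 against IgG 11 fell and 0 rose (median -0.36), and in GFP against IgG 11 fell and 1 rose (median -0.54); on the spike-in scale the counts were 0 and 1, and 3 and 3. Trem2, the receptor that signals through Tyrobp and is in the macrophage list too, fell by 0.71 ± 0.088 in GFP against IgG (adjusted p = 0.000656). Hcst, the adaptor DAP10, fell by 0.98 ± 0.12 (adjusted p = 0.000594) and the kinase Fgr fell by 0.81 ± 0.081 (adjusted p = 0.000354). Of 13 measured of 17 genes of Cd14 and Toll-like receptor signalling, 6 fell and 2 rose in V5 against IgG (median -0.21, that of all genes) and 8 fell and 2 rose in GFP against IgG (median -0.45). The lipopolysaccharide-binding protein Lbp fell by 0.91 ± 0.11 in GFP against IgG (adjusted p = 0.000557), the adaptor Ticam1 fell by 0.72 ± 0.076 (adjusted p = 0.000407) and Tlr2 fell by 0.69 ± 0.075 (adjusted p = 0.000459). On the spike-in scale 3 of these rose and 0 fell in V5 against IgG, and 4 rose and 3 fell in GFP against IgG. Spi1 and Tlr4 were not measured after the filter.

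The pan-leukocyte and antigen presentation lists had medians below that of all genes against IgG. Of 17 pan-leukocyte genes 9 fell and 0 rose in V5 against IgG (median -0.33), and 10 fell and 3 rose in GFP against IgG (median -0.63). Was, the Wiskott-Aldrich actin regulator, fell by 1.30 ± 0.20 in V5 against IgG (adjusted p = 0.00392), and the actin-binding Coro1a and the surface protein Cd52 by 0.50 and 0.49 (log2 fold changes -0.50 and -0.49, adjusted p = 0.00232 and 0.00679). All 9 antigen presentation genes were measured, of which 7 fell in V5 and 8 in GFP against IgG (medians -0.45 and -0.73). Of these, H2-DMa, H2-DMb1 and H2-Eb1 of the class II pathway had log2 fold changes of -0.73, -0.73 and -0.69 in GFP against IgG (adjusted p = 0.000347, 0.000378 and 0.000915). For these 2 lists the spike-in scale gave 3 higher and 1 lower and 0 higher and 0 lower in V5 against IgG, and 6 higher and 2 lower and 1 higher and 3 lower in GFP against IgG.

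Lymphocyte genes had the lowest medians of the leukocyte lists against IgG, -0.65 in V5 and -0.97 in GFP, with 7 and 9 of 10 measured falling, and 3 and 4 falling on the spike-in scale. Of 16 listed, 6 were not measured. Cd4 had 3.09 and 2.71 on the V5 arrays and 2.55 and 1.85 on the GFP arrays, against 6.88 and 6.94 on the input arrays, and the IgG arrays were brighter still. It was not well above background on V5 replicate 2 or either GFP array, so it was at least 3.62-fold lower in GFP than in IgG (adjusted p = 0.000163). Nkg7, of cytotoxic granules, fell by 0.76 ± 0.07 in V5 against IgG (adjusted p = 0.00119). Granulocyte and mast cell genes were mostly not measured: 4 of 12 passed the filter, of which 2 fell in V5 and 3 in GFP against IgG, and 1 and 1 on the spike-in scale. The mast cell chymase Cma1 fell by 1.01 ± 0.12 in GFP against IgG (adjusted p = 0.000516), the granulocyte peroxidase Mpo fell by 0.74 ± 0.11 (adjusted p = 0.00123) and Camp fell by 0.50 ± 0.15 (adjusted p = 0.0193).

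**Figure D4:**
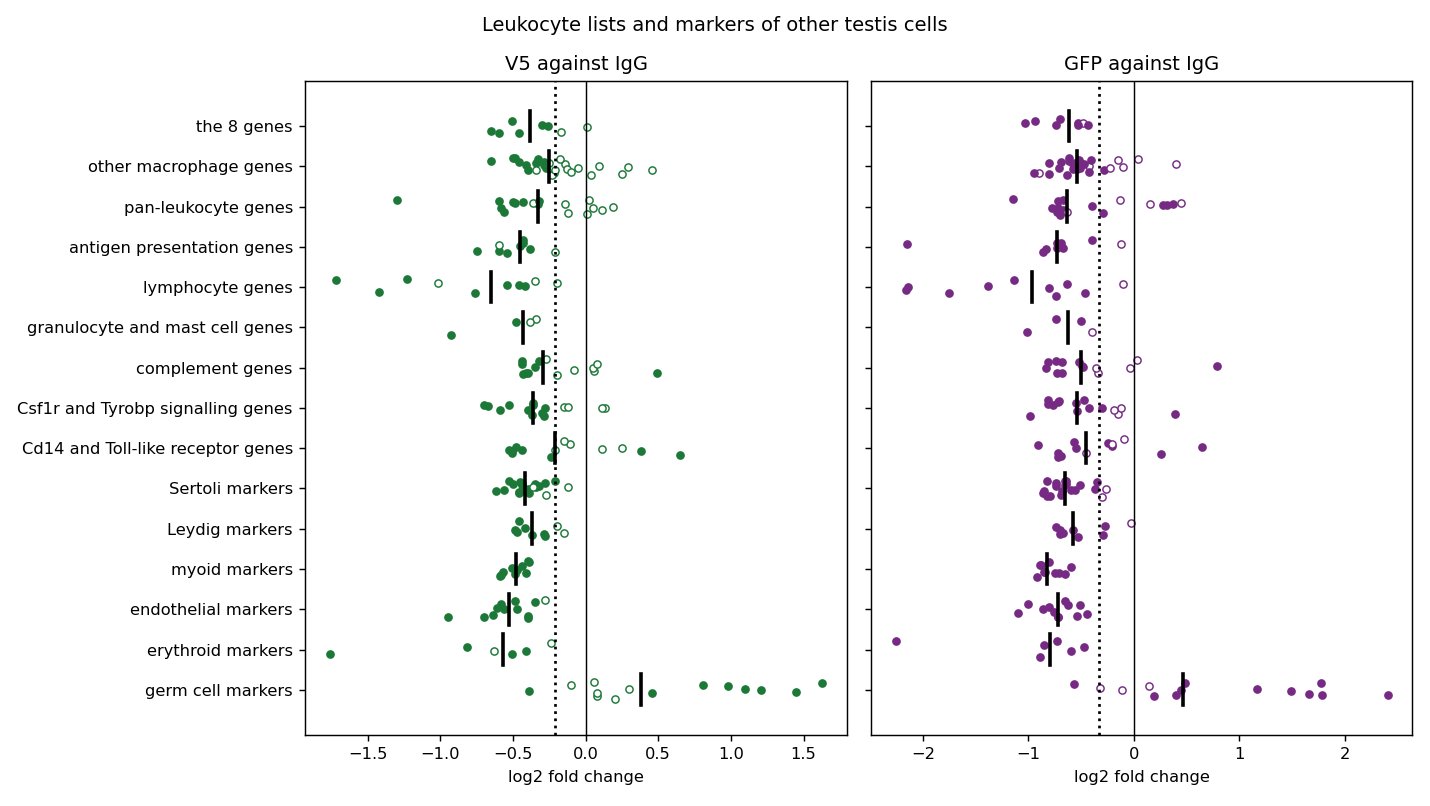
Log2 fold change (x axis) of each measured gene of each list (rows) in V5 against IgG and GFP against IgG on the 75th percentile scale; filled points passed the threshold of 0.05, black bars are list medians and the dotted line is the median of all genes. The leukocyte rows overlap the rows of Sertoli, Leydig, myoid, endothelial and erythroid markers, and the germ cell row lies to the right, with medians of 0.38 and 0.47.

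Markers of the other somatic cells of the testis were also low against IgG on the 75th percentile scale. In V5 against IgG 17 of 20 Sertoli, 7 of 9 Leydig, 10 of 10 myoid, 11 of 12 endothelial and 4 of 6 erythroid markers fell and 0 rose, with medians of -0.42, -0.37, -0.48, -0.53 and -0.57. In GFP against IgG 18, 8, 10, 12 and 6 of them fell and 0 rose, with medians of -0.65, -0.58, -0.82, -0.72 and -0.79. The all-gene shares called lower were 40.4% in V5 and 52.1% in GFP against IgG. The spike-in scale left 1, 0, 0, 0 and 1 lower in V5 and 7, 1, 7, 3 and 2 in GFP. Summed over their markers, Sertoli signals were 46900 and 44500 on the V5 arrays and 38200 and 39500 on the GFP arrays, against 59900 and 59800 on the IgG arrays and 51500 and 53700 on the input arrays. Myoid sums were 8510 and 8640 on the V5 arrays and 7260 and 7240 on the GFP arrays, against 11000 and 12400 on the IgG arrays and 19700 and 20000 on the input arrays. Endothelial sums went the other way relative to input, with 1030 and 1020 on the V5 and 880 and 891 on the GFP arrays, against 735 and 737 on the input arrays. Such a sum is weighted to its brightest probes, and the endothelial markers as a list were not higher than input. In V5 against input 3 of 12 rose and 3 fell (median -0.06), and in GFP against input 2 rose and 6 fell (median -0.22). Leydig sums were 4730 and 4740 on the V5 and 4070 and 4390 on the GFP arrays, against 4680 and 4700 on the input arrays. Erythroid sums were below input in both precipitates. The part of these cells in the levels of the 8 genes was not tested.

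Germ cell markers had medians above that of all genes against IgG and below it against input. Of 14 measured, 7 rose and 1 fell in V5 against IgG (median 0.38) and 10 rose and 1 fell in GFP against IgG (median 0.47), and on the spike-in scale 12 rose and 0 fell in each. Against input 4 rose and 7 fell in V5 (median -0.27) and 4 rose and 6 fell in GFP (median -0.14). Dmrt1, a transcription factor of spermatogonia and Sertoli cells, had 214 and 241 on the V5 arrays and 393 and 386 on the GFP arrays, against 76.1 and 70.8 on the IgG arrays and 129 and 126 on the input arrays. Lin28, an RNA-binding protein of undifferentiated spermatogonia, rose by 1.10 ± 0.078 in V5 against IgG and by 1.78 ± 0.078 in GFP against IgG (adjusted p = 0.000773 and 7.43e-05). For these 2 genes, which have the smallest p of the list against IgG, the GFP arrays were the highest of all 8.

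The authors' deposited table gives group means for V5, GFP and input, scaled to the median, and no IgG condition. In the authors' deposited table C1qb was 10.2 in V5 and 8.15 in GFP, against 15.8 in input, and Emr1 was 7.75 in V5 and 6.00 in GFP, against 10.9 in input. For Cd68 the authors' deposited table has 3.42 in V5 and 3.06 in GFP, against 4.65 in input. C1qa was 18.4 in V5 and 15.6 in GFP, against 17.4 in input, and Cd14 was 2.82 in V5 and 2.48 in GFP, against 2.64 in input, in the authors' deposited table, so that V5 was above input for both. Neither gene passed in V5 against input in the fit above. In the authors' deposited table Tyrobp was 17.8 in V5 and 15.7 in GFP, against 18.3 in input, a log2 difference of only -0.04 in V5. The brightest Csf1r entry was 9.06 in V5 and 7.91 in GFP, against 10.2 in input, a log2 difference of -0.18 in V5. For these 2 genes, called lower in V5 against input above, the fitted differences were larger. Most of the 12 Ptprc entries were lower in V5 and GFP than in input. They are not 12 separate probes, since 1 Ptprc probe was printed in 10 spots. The dimmest entries, at 0.0134 and 0.0836 in input, were higher in V5 (0.0193 and 0.357).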

How the data were processed

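The deposited array files hold intensity values, the processed signal of Agilent Feature Extraction 9.1.3.1, background-subtracted and with surrogate values for dim spots, per the file headers. A further deposited table gives signal values that the authors normalized in GeneSifter and averaged per group, per the file's comments; 6 other value columns were not used. Each array's log2 signal was set against its 75th percentile, outlier spots were dropped, and spots averaged per probe. A probe was kept if at least 1 group had it well above background on both arrays, and the brightest kept probe stood for a gene name. The fit over 8 arrays used limma 3.58.1 in R 4.3.3 (4 residual and 2.41 prior degrees of freedom), two-sided, with Benjamini-Hochberg adjustment over 17580 genes. The procedure was tested on simulated data. The number of arrays, 2 per group, limits the precision. An aligner or genome build for the probes is not given in the sources used here.

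The members and lists were chosen with earlier results of these data known. Named are all 8 genes, of each leukocyte or pathway list up to 3 and of each other marker list at most 2 genes of smallest p against IgG (not all printed), and the 6 genes most like the mean profile. Of the genes so chosen, 1 is left out here. Alternatives covered background correction, scaling, probe filter and choice, array weights, the 2 groups alone, a replicate block and left-out arrays. Same-numbered arrays showed no large shared deviation (r = -0.08 to 0.11). With 2 arrays per group this cannot show whether they came from the same lysate.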

Additional observations from a re-analysis of the deposited data

How the results depend on the processing

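Main counts of the 8 genes past the threshold were 6 and 7 in V5 and GFP against IgG, 6 and 8 in V5 and GFP against input, 6 in IgG against input and 2 in V5 against GFP. Normexp background correction (offset 50) gave 0, 2, 2, 3, 0 and 0 in that order (limma, 2, 5, 3, 5, 1 and 0 at an unadjusted p under 0.05), and no filter on dim probes gave 3 in V5 against IgG, 3 in IgG against input and 0 in V5 against GFP (6, 6 and 4 unadjusted). Scaling to spike-in spots gave 0 in V5 against IgG, 2 in GFP against IgG and 0 in V5 against GFP (2, 3 and 2 unadjusted). Without the 2 arrays of conflicting descriptions 0, 3 and 0 passed in V5 against IgG, IgG against input and V5 against GFP (4, 3 and 2 unadjusted), and Csf1r and Tyrobp were lost in V5 against input (adjusted p = 0.305 and 0.0815). V5 against GFP also gave 4 with array weights, 1 with the mean of a gene's probes, and 0 with only those arrays or with a replicate block (6 unadjusted in each of the last 2). Same-numbered arrays showed no large shared deviation, and the block changed the count past 1.5 times in no other comparison. Leaving out 1 array gave 3 to 6 in V5 and 7 to 8 in GFP against IgG, 4 to 7 in V5 and 7 to 8 in GFP against input, 3 to 5 in IgG against input and 0 to 4 in V5 against GFP. Log2 fold changes that turned on the spike-in scale were Cd68 0.06, Tyrobp 0.11 and Emr1 0.19 in V5 against IgG, Tyrobp 0.05 in GFP against IgG, and C1qa -0.39, Cd14 -0.52 and Csf1r -0.73 in IgG against input. With normexp they were Cd14 0.22 in V5 and 0.04 in GFP against input and Ptprc 0.18 in V5 and 0.12 in IgG against input. Over all genes, normexp moved 10033 calls in V5 against IgG to 0 (3697 unadjusted), 12965 in GFP against IgG to 3235, 12871 and 13229 in V5 and GFP against input to 5260 and 5705, 12878 in IgG against input to 6276, and 2459 in V5 against GFP to 0 (803 unadjusted). V5 against IgG fell to 6035 and 6682 calls without V5 replicate 1 and 2, and to 1249 without the 2 arrays of conflicting descriptions; V5 against GFP gave 2 calls with only those arrays and 5052 with array weights. The spike-in scale moved the share of higher calls from 51.4% to 26.5% in V5 against input, 48.0% to 31.0% in GFP against input and 59.9% to 17.8% in IgG against input; the quantile scale gave 39.5% in V5 against IgG. The other changes of call, 112 weaker and 14 stronger among 964 log2 fold changes recomputed, kept their direction. The cause was not tested. Signal over background limits Ptprc and the 5 dim probes.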
